A study of Homo sapiens with 6 samples.

Results

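The genes described here were 9 receptor tyrosine kinase genes other than the VEGF receptors (AXL, MET, FGFR1, FGFR2, FGFR3, FGFR4, EPHA2, DDR1 and DDR2) and SRC, a cytoplasmic tyrosine kinase that acts just below such receptors. They were taken by their symbols from the deposited count table, where all 10 were found among 57773 genes. Their expression was compared between 3 libraries of SW872 cells treated with 18 μM Apatinib for 24 h and 3 control libraries whose treatment is recorded as none. SW872 is an established human liposarcoma cell line, and Apatinib is an oral tyrosine kinase inhibitor whose main target is the VEGF receptor KDR and which is also known to inhibit SRC, KIT and RET. All 6 libraries came from this single line. The paper's methods call the 3 replicates per group biological without saying whether they were separate cultures. The labels do not say whether the controls received a vehicle. The p values measure the spread between these libraries.

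Receptor tyrosine kinases span the cell membrane, bind a ligand outside the cell, pair up and phosphorylate each other's tail, which then recruits adaptors such as SHC1 and passes the signal to the RAS and PI3K routes. AXL binds GAS6 and MET binds hepatocyte growth factor (HGF), the FGF receptors bind fibroblast growth factors together with heparan sulfate, EPHA2 binds ephrins on neighboring cells, and DDR1 and DDR2 are unusual in binding collagen. In sarcomas and other mesenchymal tumors AXL, MET and FGFR1 are known for growth and invasion signaling, and cells under kinase inhibitors can switch from one such receptor to another.

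Stretches of 250 bases upstream of a RefSeq start (build GRCh38.p14, 5′ to 3′ on the gene's strand) are shown for the member that passed the test, AXL, the member with a negative log2 fold change, MET, and EPHA2, another member whose libraries did not overlap between the groups and which has a single listed start. Capitals mark matches, on either strand, to GGGCGG (the core of an SP1 site) and GGAATG (the core of a TEAD site, read here as its reverse complement). The AXL stretch lies at chr19:41218973-41219222 (+), the MET stretch at chr7:116671946-116672195 (+) and the EPHA2 stretch at chr1:16156070-16156319 (-).
AXL: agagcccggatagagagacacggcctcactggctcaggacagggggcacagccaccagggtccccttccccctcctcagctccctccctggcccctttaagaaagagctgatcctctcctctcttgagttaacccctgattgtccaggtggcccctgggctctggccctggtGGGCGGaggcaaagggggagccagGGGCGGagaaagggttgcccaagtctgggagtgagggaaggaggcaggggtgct
MET: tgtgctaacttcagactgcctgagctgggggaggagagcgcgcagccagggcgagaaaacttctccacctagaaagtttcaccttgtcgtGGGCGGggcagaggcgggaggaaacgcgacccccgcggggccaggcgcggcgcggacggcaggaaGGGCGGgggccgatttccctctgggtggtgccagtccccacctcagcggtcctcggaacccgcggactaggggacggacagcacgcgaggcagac
EPHA2: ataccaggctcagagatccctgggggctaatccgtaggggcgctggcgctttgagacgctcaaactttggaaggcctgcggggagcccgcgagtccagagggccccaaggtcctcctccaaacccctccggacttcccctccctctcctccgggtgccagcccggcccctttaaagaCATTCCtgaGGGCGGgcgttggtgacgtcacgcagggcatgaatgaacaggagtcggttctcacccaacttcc

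GGGCGG was found 2 times in the AXL stretch, 2 times in the MET stretch and 1 time in the EPHA2 stretch, and 42.64% of 35116 RefSeq promoter stretches of the same length hold it. GGAATG was found 1 time, upstream of EPHA2, and 11.89% of all stretches hold it. The 3 stretches differed in CpG dinucleotides, with 4 for AXL, 24 for MET and 15 for EPHA2, where the median of all stretches was 11. None of these 3 stretches, which were picked for the values of their genes, held TGANTCA (the AP-1 motif, in 6.57% of all stretches), CACGTG (an E-box, in 6.34%) or TTCNNNGAA (the STAT motif, in 6.57%). A second listed AXL start, with its stretch at chr19:41226505-41226754, had 1 GGAATG match and 13 CpG dinucleotides. The search took in RefSeq stretches of 8 of the 10 members (23 in all) and did not cover FGFR1 and SRC. Among those not shown, the FGFR3 stretch held GGGCGG 8 times and 1 of the 2 of FGFR4 held it 7 times. The other FGFR4 stretch held CACGTG, 1 of the 8 of DDR1 held TGANTCA and 1 of the 3 of DDR2 held TTCNNNGAA. A match describes letters only.

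The libraries held between 17043314 and 22067558 counts, and the 10 most abundant genes took 5.46% to 7.03% of them. Of 16290 genes that passed the filter on low counts, 1866 were differentially expressed, which here needs both an FDR below 0.05 and a log2 fold change larger than 0.5 in either direction. Controls 1 and 2 resembled each other most: averaged over genes, the chi-square of their counts was 2.27 (pure sampling noise would give about 1), as opposed to 18.2 to 44.5 for the remaining pairs within a group. Averaged into 1 sample, they left 247 differentially expressed genes, so the calls below are also given, singly or as the count of a list, without them. Of 8 mesenchymal markers, 7 exceeded 1 FPKM in every library, with summed levels of 1465 to 1621 FPKM in control and 1778 to 2027 FPKM with Apatinib. The label liposarcoma implies fat cell features, but the adipocyte markers ADIPOQ and FABP4 had 0 counts throughout, and 1 of the 6 adipocyte markers (PPARG) exceeded 1 FPKM in every library.

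The level of each member was first compared per length, in FPKM, without a test between genes. In control cells MET and AXL stood highest, at 32.4 ± 4.10 and 29.7 ± 1.93 FPKM (SD, n = 3), and their ranges overlapped (27.7 to 35.1 and 27.5 to 31.0). DDR1 (24.4 ± 1.99) and EPHA2 (24.0 ± 1.15) followed and also overlapped with each other, then DDR2 (16.8 ± 4.34). SRC (10.5 ± 0.519) ranked 6 and FGFR1 (6.46 ± 0.451) ranked 7 in every library of both groups. FGFR3 (1.41 ± 0.218) and FGFR4 (1.14 ± 0.136) were near 1 FPKM and overlapped. FGFR2 had 0 counts in all 6 libraries, where a count of 0 allows up to 3 counts per library, or 0.137 to 0.174 CPM (counts scaled to a common library size). This limit covers counting error only.

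With Apatinib the upper part of this order was different. AXL reached 56.2 ± 3.66 FPKM, and its lowest treated library (53.5) lay above the highest library of the next member, EPHA2 (34.0 ± 9.55, range 26.2 to 44.6). DDR1 came next at 29.2 ± 1.44 FPKM, followed by MET at 24.5 ± 3.02. The highest MET library (26.6) lay just under the lowest DDR1 library (27.6), while MET overlapped with DDR2 (23.5 ± 6.85, range 18.4 to 31.3). The FPKM of AXL divided by that of MET was 2.87, 2.13 and 2.01 in the treated libraries and 0.800, 0.871 and 1.12 in the controls. This ratio was chosen after the values of both genes were seen and is a description.

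**Figure D1:**
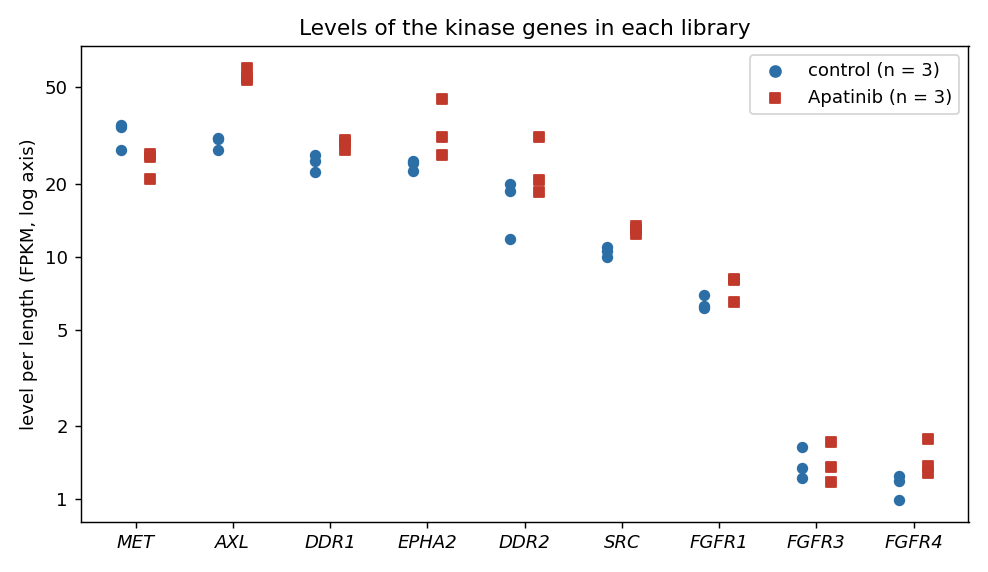
Level per length (FPKM, log axis) of 9 of the kinase genes in each library, with circles for the 3 controls and squares for the 3 libraries treated with Apatinib. FGFR2 is not drawn because it had 0 counts in every library. AXL lies at 27.5 to 31.0 FPKM in control and 53.5 to 60.4 with Apatinib, while SRC and FGFR1 keep ranks 6 and 7 in both groups.

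Of the 9 members that passed the filter, 1 (AXL, 11.1%) was differentially expressed, upregulated, beside 11.5% of the 16290 genes tested in either direction (5.97% upregulated and 5.48% downregulated). The CPM of the groups did not overlap for 4 members, AXL, MET, FGFR4 and EPHA2, beside 33.2% of all genes tested. In FPKM the groups did not overlap for 6 members, these 4 with DDR1 and SRC, beside 31.7% of all genes tested. The share of members called was near that of the whole table in this fit. Without control 1, without control 2 or with the 2 averaged, AXL stayed the 1 member called, and 275, 300 and 247 genes of the whole table were called. Shares of the genes tested were not computed for these fits, so no contrast is read from these counts. The log2 fold change was above 0 for 8 of the 9 and below 0 for MET, with a median of 0.30 where the median of all genes tested was 0.0028. In these bulk libraries fewer cells carrying a transcript and less of it per cell cannot be told apart.

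**Figure D2:**
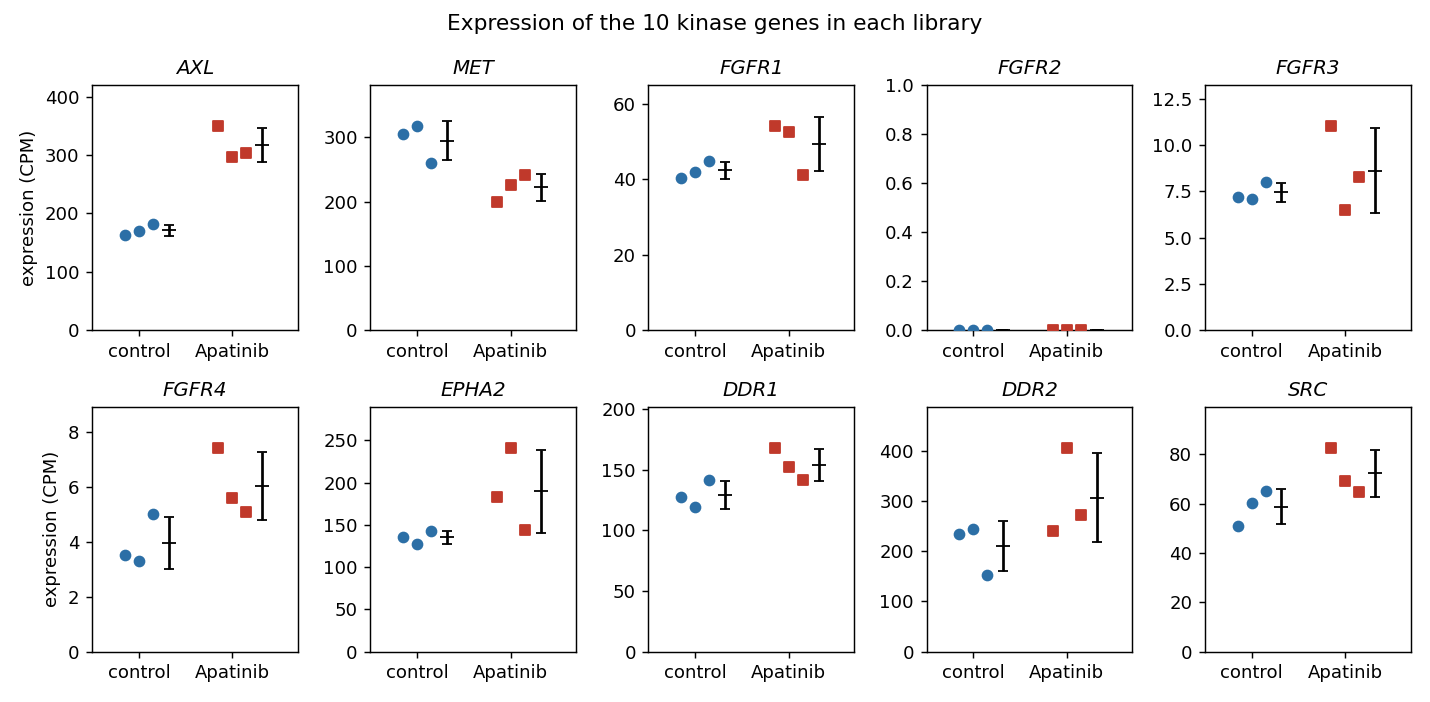
Expression in CPM (counts scaled to library size, linear axes from 0) of the 10 kinase genes, with 1 point per library and, beside each group, the mean and SD of its 3 libraries. The groups are apart for AXL, MET, FGFR4 and EPHA2, and the highest treated library is Apatinib 2 for EPHA2 and DDR2 but Apatinib 1 for AXL, FGFR1, FGFR3, FGFR4, DDR1 and SRC.

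AXL (ENSG00000167601), the receptor of GAS6 in the TAM family, was upregulated. Its expression was 350, 297 and 303 CPM with Apatinib (replicates 1 to 3) and 163, 169 and 181 CPM in the controls (1 to 3). Every treated library lay well above every control, and the spread within each group was small beside the gap. The means were 317 ± 29.3 and 171 ± 9.52 CPM (SD, n = 3), a 1.85-fold difference with a log2 fold change of 0.89 (SE 0.120, 95% interval 0.63 to 1.15), which passed the quasi-likelihood test of edgeR (Benjamini-Hochberg adjusted p = 0.00358). By p value it ranked 45 among all genes tested. The call held in all 14 alternatives, with log2 fold changes from 0.81 to 0.94 and adjusted p of the tests used there from 1.49e-08 to 0.0336. In edgeR the adjusted p was 0.0296 without control 1, 0.0301 without control 2 and 0.0330 with those controls averaged. Exons of AXL overlap those of AC011510.1 on the opposite strand in GENCODE 29, and since the strand setting of the counting was not given, reads of that transcript cannot be told apart from those of AXL.

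MET (ENSG00000105976), the HGF receptor, was the member with a negative value. It had 200, 225 and 241 CPM with Apatinib (replicates 1 to 3) and 306, 318 and 260 CPM in the controls (1 to 3). The groups did not overlap, but control 3 lay close to Apatinib 3. The log2 fold change was -0.41 (SE 0.128, 95% interval -0.69 to -0.13), or 1.33-fold lower, and it did not pass the quasi-likelihood test of edgeR (Benjamini-Hochberg adjusted p = 0.0568). The adjusted p was 0.0334 with DESeq2, 0.0347 in edgeR without control 3 and 0.259 without control 2, and the size stayed under 0.5 in all 14 alternatives.

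EPHA2 (ENSG00000142627), an ephrin receptor, had 183, 241 and 144 CPM with Apatinib (replicates 1 to 3) and 136, 128 and 143 CPM in the controls (1 to 3). The controls were tight, whereas the treated libraries ran from just above the highest control to far above it. Its log2 fold change of 0.48 (SE 0.168, 95% interval 0.12 to 0.85) did not pass edgeR's test (adjusted p = 0.0778). Single libraries decided the value. It was 0.28 without Apatinib 2 (adjusted p = 0.167) and 0.65 without Apatinib 3, where edgeR's test was passed (adjusted p = 0.0267). With DESeq2 the adjusted p was 0.0471 and with edgeR on every gene with at least 1 count it was 0.0116, with the size still under 0.5 in both.

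The collagen receptors differed in how well they were determined. DDR1 (ENSG00000204580) had 168, 152 and 141.4 CPM with Apatinib (replicates 1 to 3) and 127, 119 and 141.5 CPM in the controls (1 to 3). In CPM the lowest treated library lay just below the highest control, whereas in FPKM the groups lay apart (27.6 to 30.5 with Apatinib, 22.3 to 26.2 in control). Its log2 fold change was 0.25 (SE 0.123, 95% interval -0.02 to 0.52) and edgeR's adjusted p was 0.193. MIR4640 lies within DDR1 exons on the same strand.

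DDR2 (ENSG00000162733), the receptor for fibrillar collagens that is typical of mesenchymal cells, had 240, 406 and 272 CPM with Apatinib (replicates 1 to 3) and 235, 243 and 152 CPM in the controls (1 to 3). Apatinib 2 stood far above and control 3 far below the rest, and Apatinib 1 lay between controls 1 and 2. The log2 fold change was 0.54 (SE 0.215, 95% interval 0.07 to 1.01) with an adjusted p of 0.113 in edgeR's test. It was 0.29 without Apatinib 2 and 0.36 without control 3. In edgeR the call was made with every gene of at least 1 count (0.56, adjusted p = 0.00257) and with a replicate block (0.54, adjusted p = 0.0315), although the replicate numbers did not pair the libraries. In CPM, which is not scaled to length, DDR2 was of the order of MET, but per length its mean ranked 5 of 10 in both groups.

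FGFR1 (ENSG00000077782) was the most abundant FGF receptor, with 54.2, 52.6 and 41.0 CPM with Apatinib (replicates 1 to 3) and 40.4, 41.8 and 44.8 CPM in the controls (1 to 3). Apatinib 3 lay among the controls, so the groups overlapped. Its log2 fold change of 0.22 did not pass the test (SE 0.137, 95% interval -0.08 to 0.52; edgeR's adjusted p = 0.311). FGFR1 exons overlap LETM2 and AC087623.1 on the opposite strand.

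FGFR4 (ENSG00000160867) was low, with 128, 99 and 89 counts with Apatinib (replicates 1 to 3) and 61, 60 and 110 in the controls (1 to 3). As CPM these were 7.45, 5.59 and 5.09 against 3.52, 3.30 and 5.04. The groups did not overlap, but control 3 came within a small margin of Apatinib 3. The log2 fold change was 0.60 (SE 0.233, 95% interval 0.09 to 1.11) and edgeR's adjusted p was 0.106. Without control 3 the gene was called (0.83, adjusted p = 0.0391 in edgeR), and without Apatinib 1 its value was 0.43 (adjusted p = 0.311). On FPKM with limma the value was 0.33 with a pseudocount of 0.1 and 0.20 with a pseudocount of 1. The cause of the difference between counts and FPKM was not tested.

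FGFR3 (ENSG00000068078) had 11.1, 6.49 and 8.30 CPM with Apatinib (replicates 1 to 3) and 7.22, 7.09 and 8.02 CPM in the controls (1 to 3). Apatinib 1 alone lay clearly above the controls and Apatinib 2 lay below all of them. Its log2 fold change of 0.21 did not pass the test (SE 0.206, 95% interval -0.24 to 0.66; edgeR's adjusted p = 0.533), and it was -0.0078 without Apatinib 1. On FPKM with limma it was 0.010 with a pseudocount of 0.1 and 0.0076 with a pseudocount of 1. FGFR1 held 72.3% ± 3.39 of the summed FPKM of the 4 FGF receptors with Apatinib and 71.7% ± 2.58 in control (SD, n = 3). This difference of 0.540 percentage points was within the spread (exact two-sided permutation test, p = 0.9, where the smallest possible p is 0.1), and its sign turned when Apatinib 2 (-1.38) or control 1 (-0.938) was left out.

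SRC (ENSG00000197122) had 82.8, 69.3 and 64.8 CPM with Apatinib (replicates 1 to 3) and 51.0, 60.4 and 65.2 CPM in the controls (1 to 3). In CPM control 3 lay just above Apatinib 3, whereas in FPKM the groups lay apart (12.4 to 13.3 with Apatinib, 9.97 to 11.01 in control). The log2 fold change was 0.30 (SE 0.141, 95% interval -0.01 to 0.60) and edgeR's adjusted p was 0.179. It ranged from 0.19 to 0.38 over the 14 alternatives, with none past the test.

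**Figure D3:**
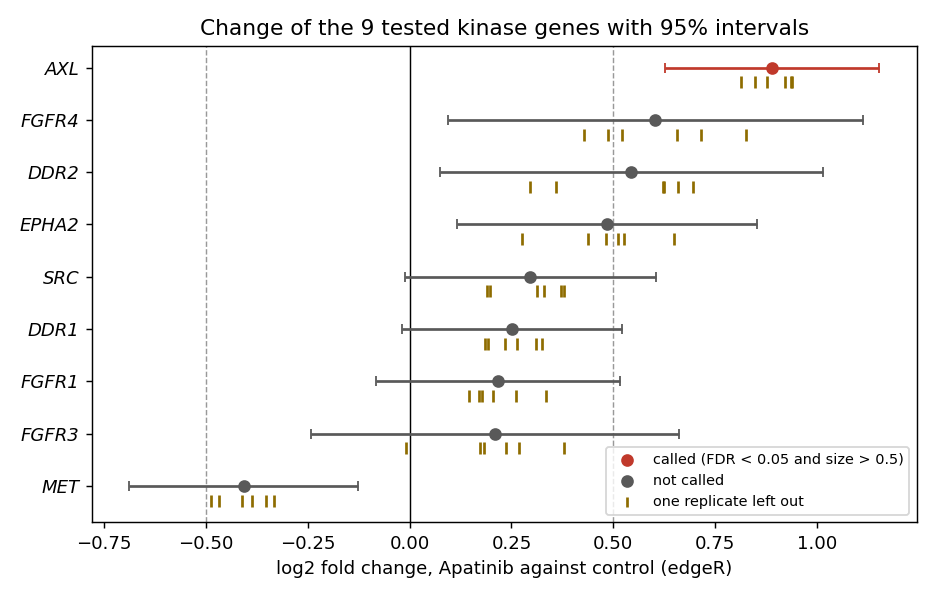
Log2 fold change, Apatinib against control, of the 9 tested kinase genes with 95% intervals from edgeR (points and bars), and the values with each replicate left out in turn (ticks). Dashed lines mark 0.5 in size. AXL alone is called, with ticks from 0.81 to 0.94, and the ticks of DDR2, EPHA2 and FGFR4 spread across the dashed line.

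The other genes of these routes were counted in 6 lists, whose shares of called genes stand beside 11.5% of all genes tested (5.97% upregulated, 5.48% downregulated) and whose medians stand beside 0.0028. With 7 to 29 genes tested a list, a share rests on 1 to 4 calls, and nothing particular to a list is read from it. Among 49 further receptor tyrosine kinase genes, 29 were tested and 2 of these (6.9%) were upregulated, with none downregulated and a median log2 fold change of 0.23. PTK7, a kinase-dead receptor of the WNT planar polarity route and the most abundant gene of this list, had 348, 337 and 305 CPM with Apatinib (replicates 1 to 3) and 205, 204 and 245 CPM in the controls (1 to 3), without overlap (0.60, SE 0.124, edgeR's adjusted p = 0.0139). LTK, a receptor related to ALK, had 14.1, 21.3 and 15 CPM against 8.66, 8.80 and 9.48 CPM (0.90, SE 0.184, edgeR's adjusted p = 0.0135). The groups lay apart for both. The next most abundant receptors did not pass edgeR's test: PDGFRB had 34.4 ± 6.62 against 28.9 ± 1.87 FPKM (0.27, adjusted p = 0.246) and EGFR had 28.1 ± 5.64 against 24.0 ± 0.795 FPKM (0.23, adjusted p = 0.276). Without control 1, without control 2 or with the 2 averaged, 0 genes of this list were called by edgeR.

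Of 12 genes for the ligands and the processing of AXL and MET, 7 were tested and 2 (28.6%, beside 5.97% of all genes tested) were upregulated, with a median log2 fold change of 0.34. GAS6, the ligand of AXL, had 37.9, 23.9 and 35.1 CPM with Apatinib (replicates 1 to 3) and 20.1, 19.96 and 21.9 CPM in the controls (1 to 3). All treated libraries lay above the controls, with Apatinib 2 close to them (0.65, SE 0.172, edgeR's adjusted p = 0.0339). SPINT1, an inhibitor of the proteases that activate HGF, was upregulated from a very low level, with 43, 20 and 20 counts against 7, 13 and 11 (1.54, SE 0.428, edgeR's adjusted p = 0.0388). PROS1, another ligand of the TAM receptors, had 1.84 ± 0.607 against 1.45 ± 0.112 FPKM (0.31, adjusted p = 0.356), and HGF had 0 counts in every library. The most abundant genes of this list were the sheddase inhibitor TIMP3 (156 ± 10.1 against 141 ± 3.49 FPKM) and the sheddases ADAM10 (29.5 ± 5.61 against 40.9 ± 8.62) and ADAM17 (15 ± 4.07 against 11.9 ± 1.09), none of which passed edgeR's test (adjusted p of 0.544, 0.0750 and 0.166). Both calls were lost without control 1, control 2 or Apatinib 1, leaving 0, and GAS6 was also lost without Apatinib 3 and SPINT1 without control 3. GAS6 and SPINT1 each overlap an antisense gene (GAS6-AS1 and SPINT1-AS1).

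Of 35 genes for FGF ligands and co-receptors, 13 were tested and 3 (23.1%, beside 5.97% of all genes tested) were upregulated, with none downregulated and a median log2 fold change of 0.43. FGF1, a ligand of all FGF receptors, had 70, 51 and 63 counts with Apatinib (replicates 1 to 3) and 25, 24 and 28 in the controls (1 to 3), far apart in every library (1.38, SE 0.250, edgeR's adjusted p = 0.00914). FGFRL1, an FGF receptor relative without a kinase domain, had 154, 150 and 134 CPM against 88.4, 93.2 and 105 CPM (0.61, SE 0.122, edgeR's adjusted p = 0.0127). The heparan sulfate proteoglycan GPC1 had 225, 146 and 166 CPM against 104, 110 and 129 CPM (0.65, SE 0.163, edgeR's adjusted p = 0.0286). The groups did not overlap for any of the 3. SDC4, the most abundant co-receptor (47.8 ± 2.08 against 34.9 ± 1.75 FPKM), passed the FDR limit but not the size (0.43, edgeR's adjusted p = 0.0365), and SDC3 did not pass (0.07, adjusted p = 0.764). Without control 1 or with controls 1 and 2 averaged 1 gene was called by edgeR, and without control 2 there were 0, while 2 stayed without Apatinib 1.

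The 8 ephrin symbols had 9 identifiers in the table, because EFNA3 names a second one (ENSG00000251246) that had 0 counts and is called AL691442.1 in GENCODE 29. Of these, 7 were tested and 1 (14.3%) was downregulated, with a median log2 fold change of 0.08. EFNB2, a membrane-bound ligand of EPHB receptors, had 20.9, 25.3 and 21.6 CPM with Apatinib (replicates 1 to 3) and 36.0, 39.8 and 37.6 CPM in the controls (1 to 3). The treated libraries all lay well below the controls, a 1.67-fold decrease (-0.74, SE 0.132, edgeR's adjusted p = 0.00849). Exons of EFNB2 overlap AL138689.2 on the opposite strand, and 0 genes of the list were called by edgeR without control 2 or with controls 1 and 2 averaged. EFNA1, a ligand of EPHA2, had 5.99 ± 0.317 against 5.20 ± 0.455 FPKM (0.20, adjusted p = 0.446 in edgeR). EFNB1, the most abundant ephrin, had 56.4 ± 5.10 against 53.2 ± 4.90 FPKM (0.08, adjusted p = 0.745 in edgeR), and EFNB3 had 11.1 ± 1.32 against 8.28 ± 1.07 FPKM (0.42, adjusted p = 0.0899 in edgeR).

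The list of SRC family kinases and their regulators held 18 genes, of which 12 were tested. Of these, 3 were upregulated and 1 was downregulated (33.3% in all, beside 11.5% of all genes tested), with a median of 0.06. FYN, a widely expressed relative of SRC, had 40.3, 58.6 and 36.0 CPM with Apatinib (replicates 1 to 3) and 25.5, 27.4 and 23.9 CPM in the controls (1 to 3) (0.81, SE 0.178, edgeR's adjusted p = 0.0170). YES1, the closest relative of SRC, moved the other way, with 60.8, 69.5 and 77.7 CPM against 116, 117 and 79.1 CPM (-0.59, SE 0.165, edgeR's adjusted p = 0.0401), although control 3 lay just above Apatinib 3. PTK2B, a kinase related to focal adhesion kinase (0.88, adjusted p = 0.0243 in edgeR), and BLK, a SRC relative best known in B cells (0.59, adjusted p = 0.0395 in edgeR), were upregulated from 4.88 ± 0.577 to 8.95 ± 2.04 CPM and from 11.5 ± 1.86 to 17.4 ± 1.77 CPM. BLK overlaps AC022239.1 and YES1 overlaps AP001020.3, both on the opposite strand, and the blood cell marker PTPRC had 0 counts in every library. The most abundant genes of the list were PTPRA, a phosphatase that removes the inhibitory mark on the tail of SRC, BCAR1, a SRC substrate, and PTK2, the focal adhesion kinase, with log2 fold changes of 0.0029, -0.03 and 0.07 (edgeR's adjusted p of 0.991, 0.910 and 0.730). CSK, which places that mark and was named after its values were seen, had -0.02 (edgeR's adjusted p = 0.935). All 4 calls were lost without control 1, without control 2 and with the 2 averaged, leaving 0, while 1 call (FYN) stayed without Apatinib 1 and 2 stayed without Apatinib 2.

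Of 28 receptor adaptors and ubiquitin ligases, 27 were tested, 2 were upregulated and 1 was downregulated (11.1%), with a median of -0.01. SHC2, an adaptor of the SHC family, had 20.1, 24.2 and 17.3 CPM with Apatinib (replicates 1 to 3) and 8.43, 8.36 and 9.57 CPM in the controls (1 to 3), a 2.33-fold increase with wide separation (1.22, SE 0.167, edgeR's adjusted p = 0.00361). Of the 15 calls in the 6 lists it was the 1 that stayed with each replicate left out in turn. The phospholipase PLCG2 had 15.6, 20.3 and 14.3 CPM against 10.8, 9.07 and 9.34 CPM (0.78, SE 0.174, edgeR's adjusted p = 0.0183). Exons of PLCG2 overlap AC099524.1 and RN7SKP176 on the same strand. PIK3R1, the regulatory subunit of PI3K, had 55.3, 75.5 and 71.6 CPM against 111, 106 and 87.6 CPM (-0.59, SE 0.149, edgeR's adjusted p = 0.0286). The most abundant genes of the list were ERRFI1, an inhibitor of EGFR (122 ± 70.7 against 108 ± 9.60 FPKM, adjusted p = 0.740), the adaptor SHC1 (108 ± 9.14 against 79.0 ± 5.70 FPKM) and SH2B3 (38.6 ± 12.2 against 43.1 ± 0.818 FPKM, adjusted p = 0.489 in edgeR). SHC1 passed the FDR limit but not the size (0.44, edgeR's adjusted p = 0.0444). Without control 1, without control 2 and with the 2 averaged, 1 gene of this list was called by edgeR, and 2 were called without Apatinib 1.

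**Figure D4:**
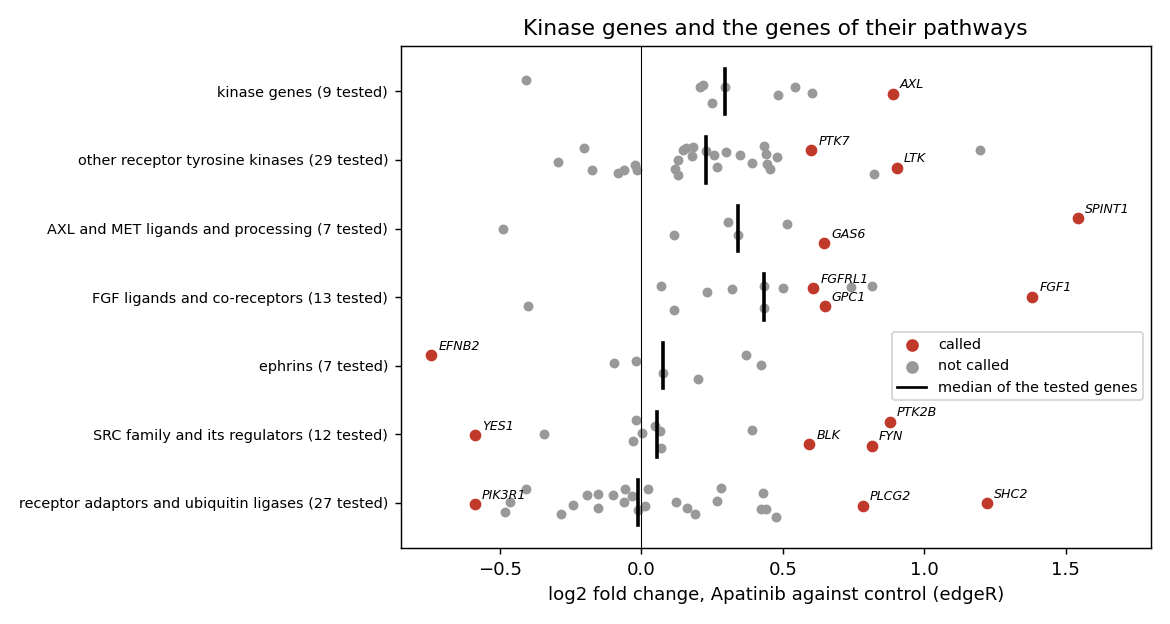
Log2 fold change, Apatinib against control, of the tested genes in each list (1 point per gene, spread vertically at random for legibility), with called genes named in red and the median of each list as a bar. The bar lies at 0.30 for the kinase genes, 0.43 for FGF ligands and co-receptors and -0.01 for the adaptors. Marker lists are not drawn. Among the lists drawn, called genes lie on both sides of 0 in the SRC family and adaptor lists only.

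Markers of other cell types were counted beside these results. Of 8 epithelial markers, 2 (KRT8 and KRT18) exceeded 1 FPKM in every library, with a summed level of the list of 155 to 186 FPKM in control and 186 to 222 FPKM with Apatinib, while EPCAM averaged 0.0466 and 0.0708 FPKM. KRT8 (0.71, edgeR's adjusted p = 0.0166) and, at 0.281 against 0.109 FPKM, ESRP1 were upregulated, and their part in the results was not tested. Exons of KRT8 overlap KRT18 on the opposite strand. Both calls were lost without control 1, without control 2, without Apatinib 1 and with controls 1 and 2 averaged, and ESRP1 was also lost without control 3 or Apatinib 3. Of the mesenchymal markers COL3A1 was upregulated, from 0.516 ± 0.0556 to 1.21 ± 0.342 FPKM (1.18, edgeR's adjusted p = 0.00955). This call was lost without control 1 and with limma on FPKM at both pseudocounts. The lowest value of COL3A1 over all alternatives was 0.54, and its FPKM is low beside a pseudocount of 1. ESRP1, VWF and CDH5, the last 2 of the endothelial list, were not tested with limma, which took genes with a mean FPKM over 0.5. Their means over all libraries were 0.195, 0.127 and 0.279 FPKM. Of 6 blood cell markers none exceeded 1 FPKM in every library, with PTPRC and LYZ at 0 counts and summed levels of 1.77 to 1.98 FPKM in control and 0.996 to 1.604 FPKM with Apatinib. Of 5 endothelial markers found, 1 (TEK) exceeded 1 FPKM in every library, and the list summed to 2.22 to 2.57 FPKM in control and 2.17 to 2.74 FPKM with Apatinib, with VWF upregulated and CDH5 downregulated at means under 0.5 FPKM. Both of these calls were lost without control 1, without control 2, without Apatinib 1 and with controls 1 and 2 averaged, VWF also without Apatinib 3 and CDH5 also without control 3.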

How the data were processed

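RNA of SW872 cells (3 libraries with Apatinib, 3 controls) was sequenced on an Illumina platform. The authors deposited raw whole-number counts per gene, which carry no normalization, together with FPKM values per library. The submitters' processing notes name CASAVA, STAR 2.7.1a and hg19, and the paper names DESeq2 for its comparison. The counting program, its strand setting and the annotation were not given in the sources used here. Groups were taken from the recorded treatment. A stray column in an FPKM table (1 column), headed with another sample's label, was not used.

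Counts were analysed with edgeR 4.0.16 in R 4.3.3 (filterByExpr, TMM, quasi-likelihood F test, Benjamini-Hochberg adjustment over all 16290 genes tested), and genes were called where the FDR was below 0.05 and the log2 fold change larger than 0.5 in either direction. CPM used the TMM factors (0.952 to 1.03). The standard error is the size of the log2 fold change divided by the root of F. The common biological coefficient of variation was 0.149, and 4979 genes had an unadjusted p under 0.05. Alternatives were DESeq2 1.42.0, RLE size factors, a total count of at least 1, at least 10 counts in every library, a replicate block, each replicate left out, controls 1 and 2 averaged, limma 3.58.1 on log2 FPKM with a pseudocount of 0.1 or 1 (mean FPKM over 0.5), and for the counts of calls an FDR limit alone.

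The members, the lists and the tests were chosen with earlier results of these data known. The named genes are the members, the called genes of each list (up to 5), its 3 genes with the highest mean FPKM, and GAS6, PROS1, HGF, EFNA1 and EFNB1. Marker genes and CSK were named after their values were seen. For AXL the rule adds the 3 genes of at least 5 mean log2 CPM with the most similar pattern. FGFR1 and SRC promoter stretches are not shown. Exon overlaps are from GENCODE 29, and motifs were searched in RefSeq stretches of 250 bases before each start.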

Additional observations from a re-analysis of the deposited data

How the results depend on the processing

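Of 126 values of the 9 tested members (14 alternatives each), 121 kept their sign and call, 0 lost a call, 4 gained one and 1 changed sign. The gains were EPHA2 without Apatinib 3 (0.65), FGFR4 without control 3 (0.83), and DDR2 with a total count of at least 1 (0.56) and with the replicate block (0.54). The sign changed for FGFR3 without Apatinib 1, its range over the replicates left out being -0.0078 to 0.38. The FGFR1 share of FGF receptor FPKM turned to -1.38 without Apatinib 2 and -0.938 without control 1, and ranged from -1.38 to 1.84 percentage points over the replicates left out. The number of members called was 2 with a total count of at least 1, 2 with the replicate block, 1 to 2 with a replicate left out and 1 otherwise. Over all genes 1866 were called, 275 to 2594 with a replicate left out (795 without Apatinib 1, 275 without control 1, 300 without control 2), 247 with controls 1 and 2 averaged, and 328 and 733 with limma on log2(FPKM + 0.1) and log2(FPKM + 1). Averaging leaves 5 samples; the cause of the other shifts was not tested.

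Calls per list with a replicate left out ranged from 0 to 4 for other receptor tyrosine kinases, 0 to 2 for AXL and MET ligands and processing, 0 to 4 for FGF ligands and co-receptors, 0 to 2 for ephrins, 0 to 4 for the SRC family and its regulators and 1 to 8 for adaptors and ubiquitin ligases. With controls 1 and 2 averaged they were 0, 0, 1, 0, 0 and 1 in that order, and with limma at a pseudocount of 0.1 they were 0, 0, 1, 0, 1 and 1. At a pseudocount of 1 they moved to 1 for other receptor tyrosine kinases and 0 for AXL and MET ligands. At the same pseudocount they moved to 2 for the SRC family and 1 for adaptors. With at least 10 counts in every library 1 call was left among AXL and MET ligands. SPINT1 was not tested in that fit, because it had fewer than 10 counts in control 1. It was not tested with limma either, as its mean FPKM was under 0.5. The missing SPINT1 call in these alternatives is therefore not a test result. Of the 15 list calls, 12 were lost without control 1, 14 without control 2 and 7 without Apatinib 1.

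The same-numbered replicates did not deviate together (r across genes of -0.259, 0.0808 and -0.220), so the replicate block, under which 2215 genes were called, pairs libraries by number only. Depth limits what can be said of FGFR2 and HGF, at 0 counts. FPKM carries no depth of its own.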

Other observations

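Among 6615 genes with a mean log2 CPM of at least 5, the 3 whose log2 CPM over the 6 libraries was most like that of AXL were ACACA (acetyl-CoA carboxylase, the committed step of fatty acid synthesis; r = 0.998, log2 fold change 0.87), MYADM (a membrane protein; r = 0.998, 0.95) and PNRC1 (a nuclear receptor coregulator; r = 0.997, 0.51). Pearson's r here is over 6 libraries in 2 groups that differ in AXL, and 593 of the genes compared exceeded 0.9, so this is a description of these libraries.

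EPHA2 and DDR2 shared their highest library, Apatinib 2, with FYN, FGF2 (12.7, 32.8 and 14.5 CPM in Apatinib replicates 1 to 3) and EGFR (324, 430 and 328 CPM). In CPM, AXL, FGFR1, FGFR3, FGFR4, DDR1 and SRC were highest in Apatinib 1, as were GAS6 and GPC1. In FPKM, however, FGFR1 was higher in Apatinib 2 (8.13) than in Apatinib 1 (8.03). FGF2 and this grouping were chosen after their values were seen. The mean chi-square per gene was 44.5 between Apatinib 1 and 2, 34.3 between 2 and 3 and 18.2 between 1 and 3.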
